A study of Mus musculus with 36 samples.

Results

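Ide and 5 genes of the same stretch of mouse chromosome 19 (Fgfbp3, Btaf1, Cpeb3, Kif11 and Hhex) were examined, 6 genes of the 55359 in the count tables. They were chosen by symbol after earlier results on these libraries had shown steps in Ide from library to library, so their levels by library are given as a description with no test. Bulk RNA was sequenced from 36 mice of the C57BL/6J strain, 12 at each of 3 ages: dorsal telencephalon at embryonic day 12.5 (E12.5) and E17.5, and cerebral cortex at postnatal day 25 (P25), in each case without the medial part. At each age 6 animals were wild type and 6 were Chd8+/- (heterozygous for Chd8, the gene of a chromatin remodeller), with 3 males and 3 females of each genotype. The labels name no transgene, no drug and no pooling, and do not describe the Chd8 allele further. They state that animals were collected as pairs matched for litter and sex, without saying which libraries form a pair.

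Ide encodes insulin-degrading enzyme, a zinc peptidase that cuts insulin, amyloid beta and other short peptides. Btaf1 encodes an ATPase that removes the TATA-binding protein TBP from DNA, Fgfbp3 a secreted protein that binds fibroblast growth factors (FGFs), and Cpeb3 an RNA-binding protein that represses translation and is known for its role at synapses. Kif11 encodes the kinesin that pushes the spindle poles apart in mitosis, and Hhex a homeobox transcription factor of endothelial and blood lineages. A duplicated stretch that holds Ide is known to be carried by some C57BL/6J mice and not by others. Read counts measure RNA and not the number of gene copies, so copy number was not measured here.

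In the reference gene order the stretch reads Tnks2, Fgfbp3, Btaf1, Cpeb3, Marchf5, Ide, Kif11, Hhex and Exoc6, with noncoding genes and pseudogenes left out. Cpeb3 and Marchf5 thus lie between Btaf1 and Ide. Ide and Btaf1 were the 2 genes whose largest gap in level between libraries lay in the same place at E12.5 and at P25. The 250 bases before the RefSeq start of each are therefore shown. They are on build GRCm38.p6, at chr19:37334545-37334794 on the minus strand for Ide and at chr19:36925829-36926078 on the plus strand for Btaf1, written 5′ to 3′ with each CG dinucleotide in capitals.
Ide: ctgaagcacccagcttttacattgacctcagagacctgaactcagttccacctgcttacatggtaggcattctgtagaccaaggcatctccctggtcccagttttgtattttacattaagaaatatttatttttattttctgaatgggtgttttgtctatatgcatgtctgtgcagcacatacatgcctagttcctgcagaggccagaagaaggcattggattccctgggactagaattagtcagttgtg
Btaf1: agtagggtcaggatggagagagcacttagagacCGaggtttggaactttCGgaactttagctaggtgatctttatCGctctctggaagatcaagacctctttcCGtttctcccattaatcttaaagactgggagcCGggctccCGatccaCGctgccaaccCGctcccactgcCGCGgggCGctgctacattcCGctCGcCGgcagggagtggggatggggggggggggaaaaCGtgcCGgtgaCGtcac

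The Btaf1 window held 17 CG dinucleotides, a number reached by 23.5% of 32851 RefSeq promoter windows of that length. The Ide window held 0. The RefSeq start of Ide lay 3308 bases from the nearest start in GENCODE, whereas that of Btaf1 coincided with one, and which start these libraries used was not measured. Both strands were searched for 3 promoter motifs. The letters CCAAT were found in the Ide window, as in 33.8% of all windows. The motif GGGCGG, held by 32.7% of all windows, was found in neither, and likewise TATAAA, held by 12.4%.

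Chd8 itself was lower in heterozygotes at each age, by 0.53, 0.49 and 0.54 on the log2 scale from the youngest age to the oldest (SE 0.0279, 0.0329 and 0.0368; adjusted p = 1.97e-06, 1.17e-06 and 3.02e-06, edgeR quasi-likelihood test), and no heterozygous library overlapped a wild type one. Total counts per library ran from 23774502 to 49561343, except for wild type female 1 at P25, which held 108257517. Emx1, a marker of the dorsal telencephalon, was present in every library, with 47.9 to 68.7 CPM (counts scaled to the size of the library) at E12.5, 16.4 to 22.2 in the E17.5 libraries and 7.67 to 10.8 in those of P25. The summed level of 8 interneuron and ventral telencephalon markers ranged from 2.07 to 221 CPM among the E12.5 libraries.

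At E12.5, 3 of the 12 libraries stood above the rest in Ide. Heterozygous male 1 (library 2) was at 260 CPM, heterozygous female 1 (library 1) at 230 and wild type female 1 (library 4) at 192. The other 9 libraries lay between 137 and 153 CPM. Relative to the median of the age, the 3 libraries were at 1.73, 1.53 and 1.27 times, so they also differed from each other. The largest gap between neighbouring libraries, sorted by log2 CPM, was 0.32 and lay below these 3, and it was 0.59 without wild type female 1. In 22.9% of the 19041 genes tested at E12.5 the largest gap was as wide or wider, and in 4.19% of the genes with a mean of at least 10 CPM.

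At P25 a different number of libraries was high. Heterozygous female 3 (library 34) was at 110 CPM of Ide, heterozygous male 2 (library 29) at 104, heterozygous female 2 (library 31) at 103 and wild type male 2 (library 30) at 98.8. The remaining 8 libraries lay between 63.0 and 71.1 CPM. The 4 high libraries were at 1.42 to 1.59 times the median of the age, closer to each other than the 3 high libraries of E12.5. The gap was 0.47, and 7.8% of 18467 genes had one as wide, or 0.441% of genes with a mean of at least 10 CPM.

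At E17.5 no step was seen in Ide. All 12 libraries lay between 48.8 and 53.7 CPM, with a mean of 52.0 ± 1.48 (SD, n = 12). The largest gap was 0.05 and separated only heterozygous male 3 at the bottom, and 87.6% of all genes tested and 77.2% of those with a mean of at least 10 CPM had one as wide. High libraries were of both genotypes at E12.5 and at P25, with 1 wild type and 2 heterozygous at E12.5 and 1 wild type and 3 heterozygous at P25. The 3 high E12.5 libraries all carry replicate number 1, and the 1 other library with that number, wild type male 1 (library 3), was at 143 CPM. At P25, 3 of the 4 high libraries (29, 30 and 31) carry number 2 and library 34 carries number 3. The remaining library with number 2 at P25, wild type female 2 (library 32), had the lowest Ide of that age, 63.0 CPM. Whether these numbers mark litters or processing is not stated in the labels.

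**Figure D1:**
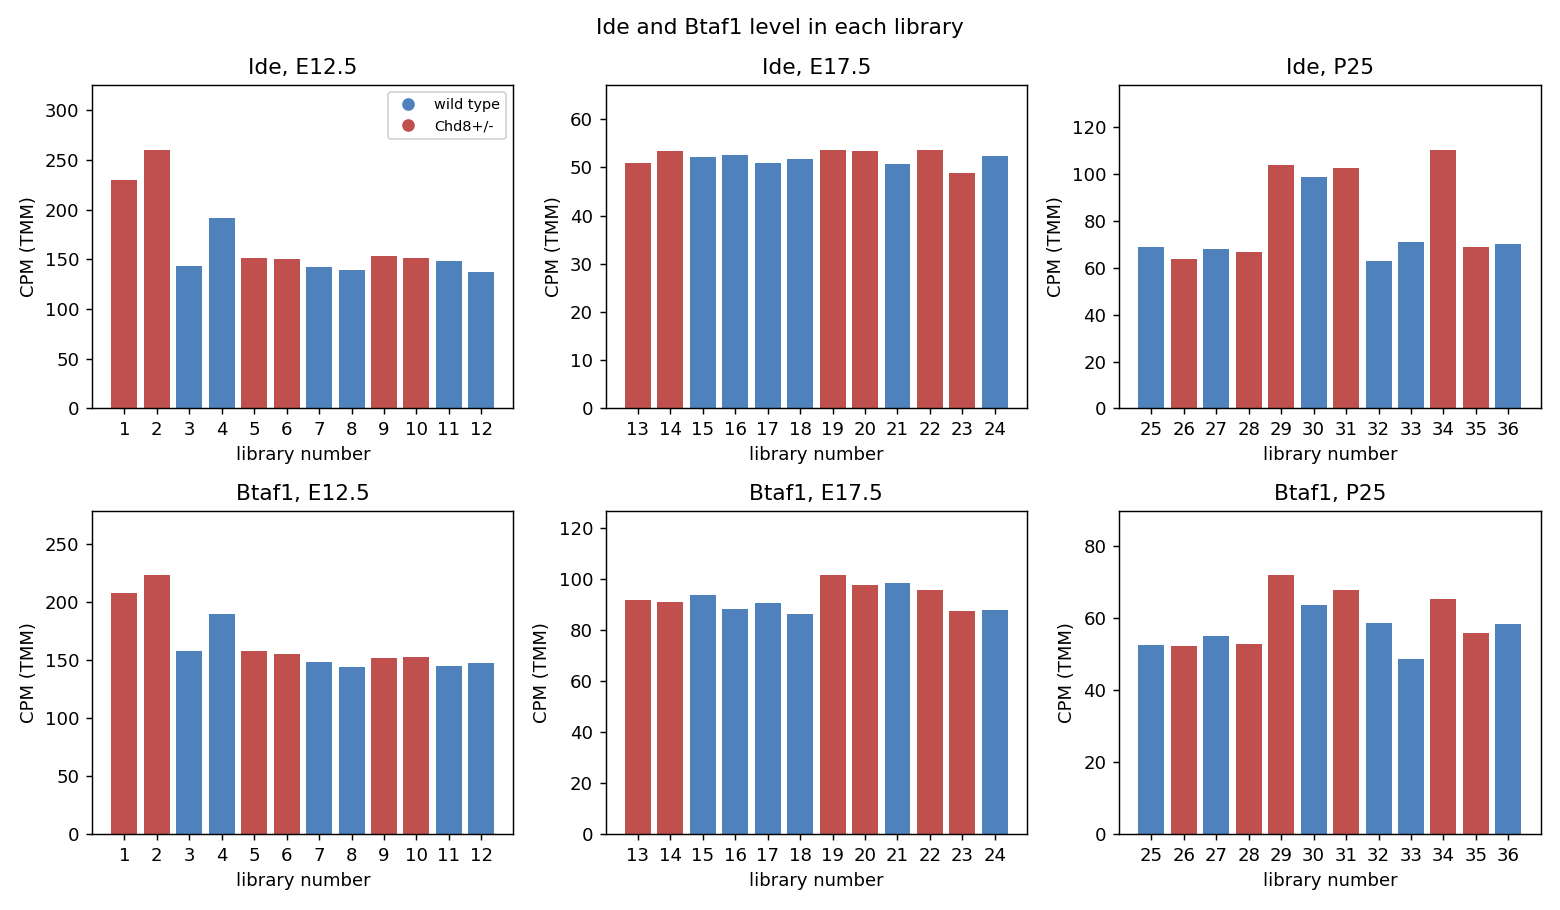
Level of Ide (top) and Btaf1 (bottom) in each library, in CPM on axes that start at 0, by library number, at E12.5, E17.5 and P25; blue bars are wild type and red bars Chd8+/-. Libraries 1, 2 and 4 at E12.5 and 29, 30, 31 and 34 at P25 are the highest in both genes, and the E17.5 bars of Ide lie between 48.8 and 53.7 CPM.

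Btaf1 had its largest gap below the same libraries as Ide at E12.5 and at P25. At E12.5 it was at 223 CPM in heterozygous male 1, 208 in heterozygous female 1 and 189 in wild type female 1, and at 144 to 158 in the other 9. The 3 libraries stood in the same order as for Ide, at 1.45, 1.35 and 1.23 times the median of the age, with a gap of 0.26. Scaled to the neighbours Tnks2 and Marchf5, a scaling chosen after seeing the data, only the 2 heterozygous libraries lay above the gap in both genes, and wild type female 1 was itself the highest E12.5 library in Tnks2, at 361 CPM. At P25 Btaf1 was at 71.9 CPM in heterozygous male 2, 67.7 in heterozygous female 2, 65.3 in heterozygous female 3 and 63.8 in wild type male 2, against 48.8 to 58.5 in the other 8. These 4 libraries were at 1.12 to 1.26 times the median, a smaller rise than that of Ide. The gap of 0.12 was 22.2% of the log2 range of Btaf1 at P25, against 58.5% for Ide, so the Btaf1 levels were more graded at that age. At E12.5 this went the other way, with 41.3% for Btaf1 and 35.1% for Ide. At E17.5 all 12 libraries lay between 86.5 and 101 CPM of Btaf1, and the gap of 0.04 lay below heterozygous male 2 alone.

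Few genes divided the libraries as Ide did. Counting Ide itself, the largest gap fell below the same 3 libraries in 9 genes at E12.5, 0.0473% of those tested, and below the same 4 in 13 genes at P25, 0.0704%. Ide and Btaf1 were the 2 genes with the divisions of both ages, 0.0122% of the 16427 genes tested at both ages. Among the others of E12.5 were Rpsa-ps2, a pseudogene on chromosome 10 with a gap of 0.22, and Insig1 (0.12) and Fdft1 (0.08), which act in the control and the synthesis of cholesterol. Ubac1 (0.08) and Vim (0.06), the gene of the intermediate filament vimentin, also shared it. At P25 the widest were Slc9a4 (1.09), a sodium-proton exchanger, Fibcd1 (0.92), a marker of hippocampal field CA1, Gpr161 (0.59), a receptor of cilia, Shisa6 (0.45), an AMPA receptor partner, and Ror1 (0.32), a Wnt5a receptor. None of these 10 genes is on chromosome 19. At P25 summed meningeal markers were 42.0 to 77.3 CPM in the 4 high libraries, which ranked 1, 2, 5 and 10 from the top, and choroid plexus markers 51.7 to 224 CPM, at ranks 1, 2, 4 and 6. Over all 12 P25 libraries these sums ran from 39.5 to 77.3 and from 1.92 to 224 CPM. Sums of the other cell type lists are not given for these 4 libraries. Bcl11b, an excitatory cortical marker on chromosome 12, also had the P25 division, with a gap of 0.21. The part of tissue composition in the steps was not tested.

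No neighbour between or around Ide and Btaf1 shared the whole division at E12.5 or P25. Of the genes around them that are not among the 6, 12 were tested at E12.5 and 10 at P25, and in 0 of them did the largest gap lie below the libraries of Ide. Their gaps were not all narrower than those of Btaf1: 3 of the 12 at E12.5 and 7 of the 10 at P25 had one at least as wide, among them Rpp30 (0.21) and Hectd2 (0.20) at P25. What Btaf1 shared with Ide was thus which libraries lay above the gap, not the width of the gap. Tnks2, a tankyrase, ranged over 320 to 361 CPM at E12.5 and 197 to 231 at P25, with gaps of 0.08 and 0.05. Marchf5, a mitochondrial ubiquitin ligase next to Ide, ranged over 115 to 128 CPM at E12.5 and 48.6 to 57.2 at P25, and the 4 libraries high in Ide at P25 ranked 7, 9, 10 and 11 in it. At E12.5 the 3 libraries high in Ide ranked 1, 2 and 7 in Marchf5 and 1, 2 and 12 in Tnks2. In Tnks2 the 4 of P25 ranked 4, 7, 10 and 11. Exoc6, the last gene of the stretch, had part of the order. The 4 libraries of P25 ranked 1, 2, 3 and 8 in it, and the 3 of E12.5 ranked 1, 3 and 8. In Myof, farther out, they ranked 1, 3, 4 and 9 at P25 and 2, 7 and 10 at E12.5.

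**Figure D2:**
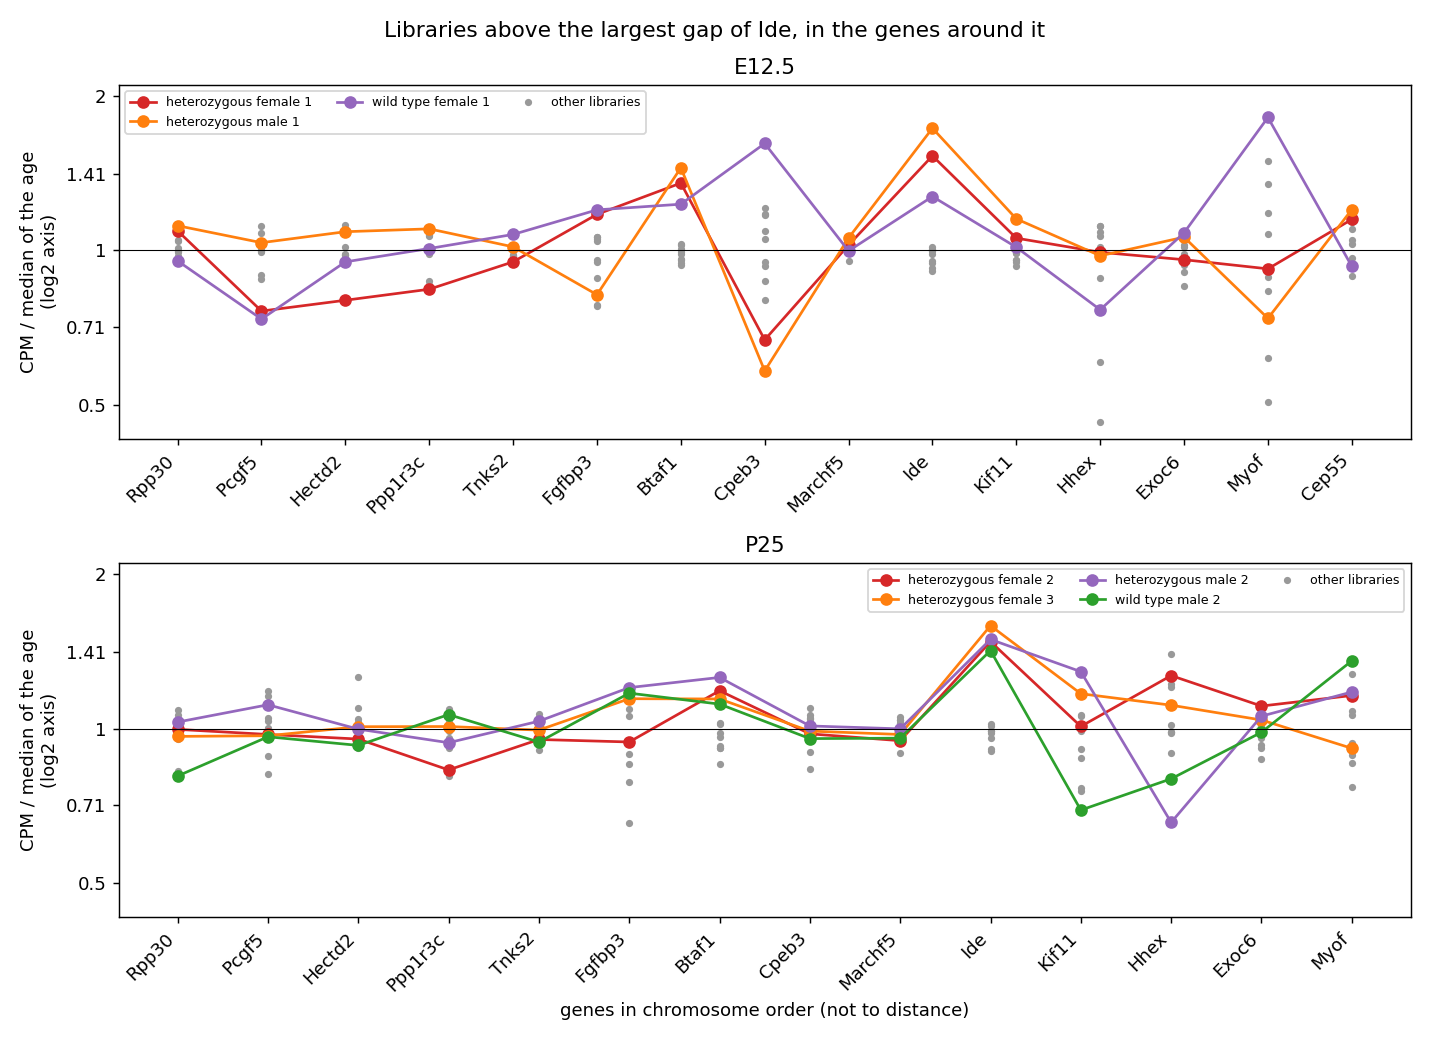
Level of protein-coding genes in chromosome order (equal spacing, not distance) as a ratio to the median of the age, on a log2 axis, at E12.5 (top) and P25 (bottom); coloured lines are the libraries above the largest gap of Ide and grey dots all others. The lines rise together at Ide and Btaf1, and the ratio of Ide reaches 1.73 at E12.5 and 1.59 at P25, while at Cpeb3 and Marchf5, which lie between, they do not.

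Fgfbp3, the neighbour of Btaf1, shared the libraries in part. At E12.5 wild type female 1 (37.1 CPM) and heterozygous female 1 (36.4) were its 2 highest libraries, above a gap of 0.15, and the other 10 lay at 24.1 to 32.9. Heterozygous male 1, the highest library for Ide, ranked 10 of 12 in Fgfbp3 with 25.4 CPM. At P25 Fgfbp3 lay between 2.89 and 5.30 CPM, and the 4 libraries high in Ide ranked 1, 2, 4 and 7.

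Cpeb3 went in opposite directions in the 3 high E12.5 libraries. Wild type female 1 was its highest library at 8.14 CPM, whereas heterozygous female 1 (3.38) and heterozygous male 1 (2.94) were its 2 lowest. The same 3 libraries had summed interneuron and ventral markers of 221, 3.42 and 2.07 CPM, the highest and the 2 lowest of that age. At P25 the libraries high in Ide ranked 6, 7, 8 and 10 in Cpeb3, which lay between 69.4 and 91.3 CPM.

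Kif11 was highest at E12.5 in heterozygous male 1 (482 CPM) and heterozygous female 1 (442), and wild type female 1 ranked 5 of 12 at 424. Summed mitotic markers were also highest in heterozygous male 1 (4777 CPM) and heterozygous female 1 (4498), and the part of cycling cells in the Kif11 order was not tested. At P25 Kif11 was at 2.50 to 4.65 CPM, and the libraries high in Ide ranked 1, 2, 6 and 12. Hhex was at 1.06 to 2.56 CPM at E12.5, on 37 to 109 reads, and the libraries high in Ide ranked 7, 8 and 10. At P25 they ranked 2, 5, 11 and 12 in Hhex.

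Over all 36 libraries Btaf1 had the profile nearest to that of Ide. After the mean of each age was removed, the root mean square difference between the 2 profiles was 0.12 log2 units, against 0.24 for the Ide profile itself, and it was the smallest of 12760 genes with a mean of at least 1 CPM at every age. The next genes were B3gnt5 (0.18), a glycosyltransferase, Thumpd3 (0.18), Hs6st2 (0.18), a heparan sulfate sulfotransferase, Snrnp25 (0.19), a minor spliceosome protein, and Nup43 (0.19), a nuclear pore protein. Fgfbp3 ranked 3327, Kif11 3562 and Cpeb3 12024, and Hhex fell under the CPM minimum. Of the chromosome 19 neighbours outside the 6 genes, Exoc6 came nearest, at rank 569, and Marchf5 next, at 3641. These values are a description over libraries that share the steps.

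All 6 genes changed with age in both comparisons, which the choice of the genes had not used. Of all genes tested, 82.6% passed between E12.5 and E17.5 and 88.5% between E17.5 and P25, so a call for each of 6 genes is near the background. Both comparisons use the E17.5 libraries. The changes are means over both genotypes and both sexes. They come from 1 fit scaled over all 36 libraries, whereas the CPM were scaled within each age, so a ratio of mean CPM need not equal the fitted change. E12.5 RNA was extracted with another kit than that of the later ages, which cannot be told apart from age there. In bulk tissue, fewer cells of a type and less RNA per cell cannot be told apart either.

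Ide was highest at E12.5 and lowest at E17.5. Its mean was 166 ± 39.8 CPM (SD, n = 12) at E12.5, 52.0 ± 1.48 in E17.5 libraries and 79.8 ± 18.3 at P25, and the 3 ages did not overlap. It fell by 1.53 on the log2 scale to E17.5 (SE 0.0994, adjusted p = 5.67e-16) and rose by 0.81 to P25 (SE 0.099, adjusted p = 3.42e-09, edgeR). Without the 7 libraries above the gaps, the values were -1.36 and 0.58, both still past the threshold. Leaving out libraries of E12.5 and P25 for their high Ide makes both changes smaller by itself, so this is no independent check. Among 11 tested peptidases that cut amyloid beta, insulin or like peptides, 4 rose and 4 fell to E17.5, with a median change of 0.04 on the log2 scale beside 0 for all genes. To P25, 6 rose and 4 fell, with a median of 0.47 beside -0.03. Ctsd, the lysosomal cathepsin D, rose by 2.01 to P25, and Pitrm1, a mitochondrial peptidase related to Ide, fell by 0.82 to E17.5 and by 0.66 to P25.

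Btaf1 fell at both steps. Its mean was 165 ± 26.5 CPM (SD, n = 12) at E12.5, 92.5 ± 4.87 in E17.5 libraries and 58.6 ± 7.12 at P25. The log2 changes were -0.69 (SE 0.0652, adjusted p = 1.21e-11) and -0.46 (SE 0.066, adjusted p = 8.57e-08, edgeR). Of 7 genes of TBP regulation, 3 rose and 3 fell to E17.5 (median -0.05), and 6 fell and 0 rose to P25 (median -0.41). Tbp itself rose by 0.14 and then fell by 0.94.

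Fgfbp3 was at 30.4 ± 4.43 CPM (SD, n = 12) at E12.5, 22.2 ± 2.1 in the E17.5 libraries and 4.36 ± 0.762 at P25. It fell by 0.30 to E17.5 (SE 0.0749, adjusted p = 0.00041, edgeR), which did not pass in wild type libraries alone (-0.22, adjusted p = 0.0907). It fell by 2.16 to P25 (SE 0.0855, adjusted p = 2.3e-22). Of 10 FGF ligands, receptors and a further binding protein, 3 rose and 4 fell to E17.5, and 7 rose and 3 fell to P25. Fgfr3, an FGF receptor, fell by 3.07 to E17.5 and rose by 2.31 to P25, and the ligand gene Fgf2 fell by 2.66 and rose by 3.85.

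Cpeb3 rose throughout. It was at 2.94 to 8.14 CPM at E12.5, 22.8 to 33.2 in E17.5 libraries and 69.4 to 91.3 at P25, with no overlap between ages. The log2 changes were 2.61 (SE 0.0837, adjusted p = 7.33e-25) and 1.78 (SE 0.0743, adjusted p = 1.11e-21, edgeR). Of 6 genes of the CPEB family and its partners, 4 rose and 2 fell to E17.5 (median 0.92), and 2 rose and 2 fell to P25 (median 0.07). Cpeb4 rose by 1.91 to E17.5, and Cpeb1 rose by 1.64 and then by 5.28.

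Kif11 had the widest fall of the 6 genes at both steps. It was at 391 to 482 CPM at E12.5, 66.7 to 92.3 in E17.5 libraries and 2.50 to 4.65 at P25. It fell by 2.30 (SE 0.0598, adjusted p = 1.79e-27) and by 4.25 (SE 0.0739, adjusted p = 7.77e-33, edgeR). All 8 bipolar spindle genes and all 8 mitotic markers, 2 lists that share Kif15, Tpx2 and Kif20a, also fell at both steps. Kif15, a second spindle kinesin, fell by 2.87 and 4.55, and Tpx2, a spindle assembly factor, by 2.47 and 3.81.

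Hhex was at 1.06 to 2.56 CPM at E12.5, 0.558 to 1.08 in E17.5 libraries and 1.0 to 2.12 at P25, so the E12.5 and P25 libraries overlapped. It fell by 1.19 to E17.5 (SE 0.139, adjusted p = 1.5e-09) and rose by 1.11 to P25 (SE 0.143, adjusted p = 9.99e-09, edgeR). Of 6 endothelial markers, 4 fell and 1 rose to E17.5, and 2 rose and 1 fell to P25, and their part in the Hhex change was not tested. Among 6 transcription factor and TLE corepressor genes listed with Hhex, 2 rose and 3 fell to E17.5, and 3 rose and 3 fell to P25. Gata2, a blood and endothelial factor, fell by 0.82 and rose by 2.55.

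Per kilobase of merged exon the order of the genes changed with age. At E12.5 Kif11 led at 56.6 ± 3.43 CPM per kb (SD, n = 12), followed by Ide at 22.2 ± 5.31, Fgfbp3 at 17.1 ± 2.50 and Btaf1 at 16.1 ± 2.59, and these 3 overlapped. At E17.5 Fgfbp3 led at 12.5 ± 1.19, then Kif11 at 10.4 ± 1.09, Btaf1 at 9.02 ± 0.475, Ide at 6.93 ± 0.197 and Cpeb3 at 3.73 ± 0.457, and only the first 3 overlapped with a neighbour in this order. At P25 Cpeb3 at 11.2 ± 0.824 and Ide at 10.6 ± 2.43 overlapped at the top, followed by Btaf1 at 5.71 ± 0.694, Fgfbp3 at 2.46 ± 0.43 and Kif11 at 0.472 ± 0.0888. Hhex had the lowest mean at each age, at 0.419 ± 0.095, 0.166 ± 0.0306 and 0.314 ± 0.0629, but its libraries overlapped with those of Cpeb3 at E12.5 and of Kif11 at P25.

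**Figure D3:**
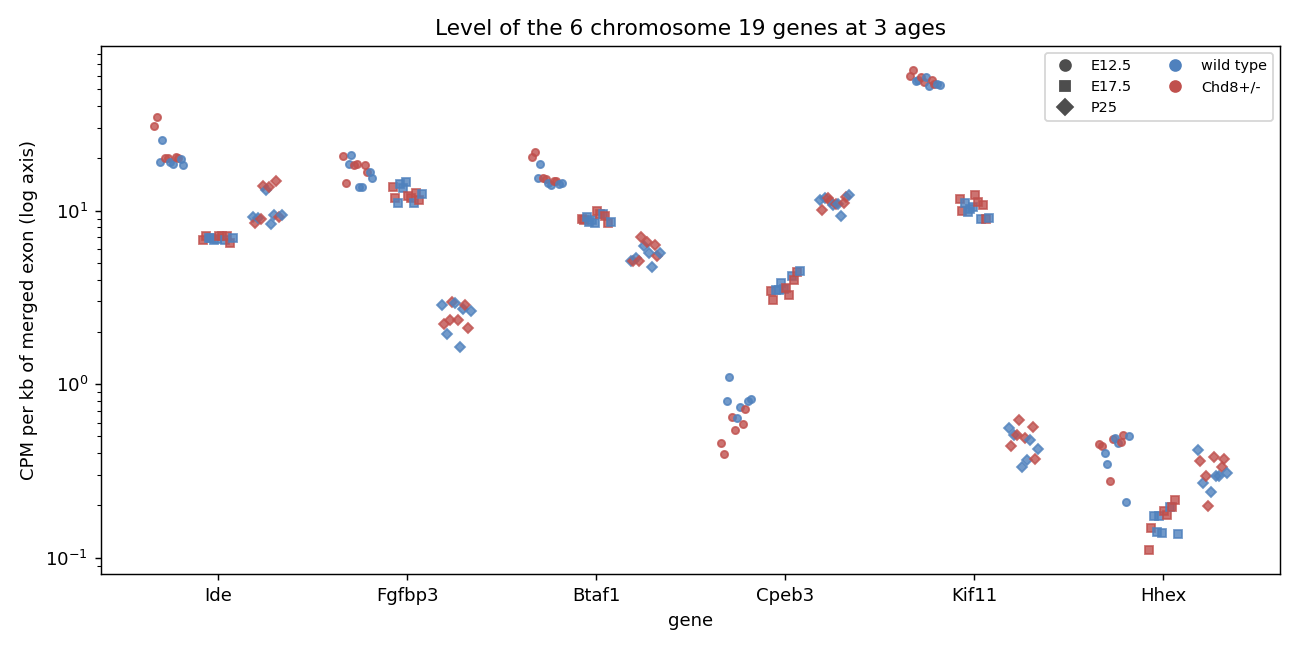
Level of the 6 genes in every library, in CPM per kilobase of merged exon on a log axis; circles are E12.5, squares E17.5 and diamonds P25, blue wild type and red Chd8+/-. Cpeb3 rises and Kif11 falls from age to age, and Hhex has the lowest mean, 0.419, 0.166 and 0.314 CPM per kb.

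Of the 6 genes, 0 passed the genotype test with edgeR at each age, and DESeq2 called 1, 0 and 0 at E12.5, E17.5 and P25. Of all genes tested with edgeR, 0.231% passed at E12.5, 0.116% in E17.5 libraries and 0.00542% at P25. With DESeq2, 1146, 106 and 17 of all genes passed at the 3 ages, against 44, 21 and 1 with edgeR. Cpeb3 at E12.5 was the 1 of the 6 with an unadjusted p under 0.05, and 0 had one at the later ages. Ide was at 137 to 192 CPM in wild type (median 143) and 150 to 260 in heterozygous libraries (median 152) at E12.5, a log2 difference of 0.28 (SE 0.151, adjusted p = 0.361), and the groups overlapped. At E17.5 the difference was 0.01 (SE 0.0345, adjusted p = 0.963). At P25 Ide was at 63.0 to 98.8 CPM in wild type (median 69.6) and 63.6 to 110 in heterozygous libraries (median 86.0), again overlapping. The P25 difference was 0.23 (SE 0.146, adjusted p = 0.916, edgeR). It passed with no low-count filter (0.23, adjusted p = 0.0401, edgeR), where 76 of all genes passed, against 1 with the filter. Without the libraries above its gap the Ide difference was 0.09 at E12.5 and -0.04 at P25, which is set in part by leaving out libraries for their level of Ide. The E12.5 range of Btaf1 was 144 to 189 CPM in wild type (median 148) and 152 to 223 in heterozygous libraries (median 157). Btaf1 had differences of 0.17 (SE 0.111), 0.05 (SE 0.0423) and 0.12 (SE 0.0831) at the 3 ages, with adjusted p of 0.468, 0.834 and 0.922 (edgeR).

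Cpeb3 at E12.5 lay nearest to the threshold. It was at 4.71 to 8.14 CPM in wild type (median 5.92) and 2.94 to 5.30 in heterozygous libraries (median 4.22), overlapping groups with a log2 difference of -0.56 (SE 0.155, adjusted p = 0.0974, edgeR). DESeq2 called it (-0.56, adjusted p = 0.0143), as did 1 fit of all 36 libraries (-0.57, adjusted p = 0.00557). These 2 settings also called far more genes at E12.5, 1146 and 1233 of all genes against 44 in the main fit. Without the 3 libraries above the gap of Ide, it was -0.28 (adjusted p = 0.548). Those 3 are the highest wild type and the 2 lowest heterozygous libraries in Cpeb3, so leaving them out shrinks the difference by itself. The 7 tested interneuron and ventral markers all had differences below 0 at E12.5, with a median of -1.97 beside -0.00206 for all genes. Of these, 1, the neuropeptide gene Sst, passed (-3.10, adjusted p = 0.0279, edgeR). Sst was near the floor, with a mean of 0.635 CPM and a range of 0.0239 to 1.76 over the E12.5 libraries. The summed level of the marker list was 11.9 to 221 CPM in wild type and 2.07 to 46.0 in heterozygous libraries. Of other cell type markers at E12.5, 6 of 7 excitatory cortical (median -0.24) and all 4 microglial ones (-0.32) were lower in heterozygotes. All 8 mitotic (0.11) and all 6 endothelial markers (0.08) were higher. In these other lists 0 genes passed with edgeR. The part of any of these lists in the Cpeb3 difference was not tested. Of the 6 other genes of the CPEB family and its partners, 0 passed at E12.5, with a median of -0.0063.

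The genotype difference of the 6 genes was not shown to change with age. For E17.5 against E12.5, P25 against E17.5 and P25 against E12.5, 0 of 6 passed, beside 0.357%, 0.00463% and 0.769% of all genes. At an unadjusted p under 0.05 there were 1, 0 and 1, in both cases Cpeb3. For P25 against E12.5 the Cpeb3 term was 0.57 (SE 0.162, adjusted p = 0.0876, edgeR), and DESeq2 called it (adjusted p = 0.0249). Over all genes DESeq2 called 534 in that comparison, against 166 with edgeR. The Ide terms were -0.27, 0.21 and -0.06, with adjusted p of 0.741, 1 and 0.943 (edgeR).

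**Figure D4:**
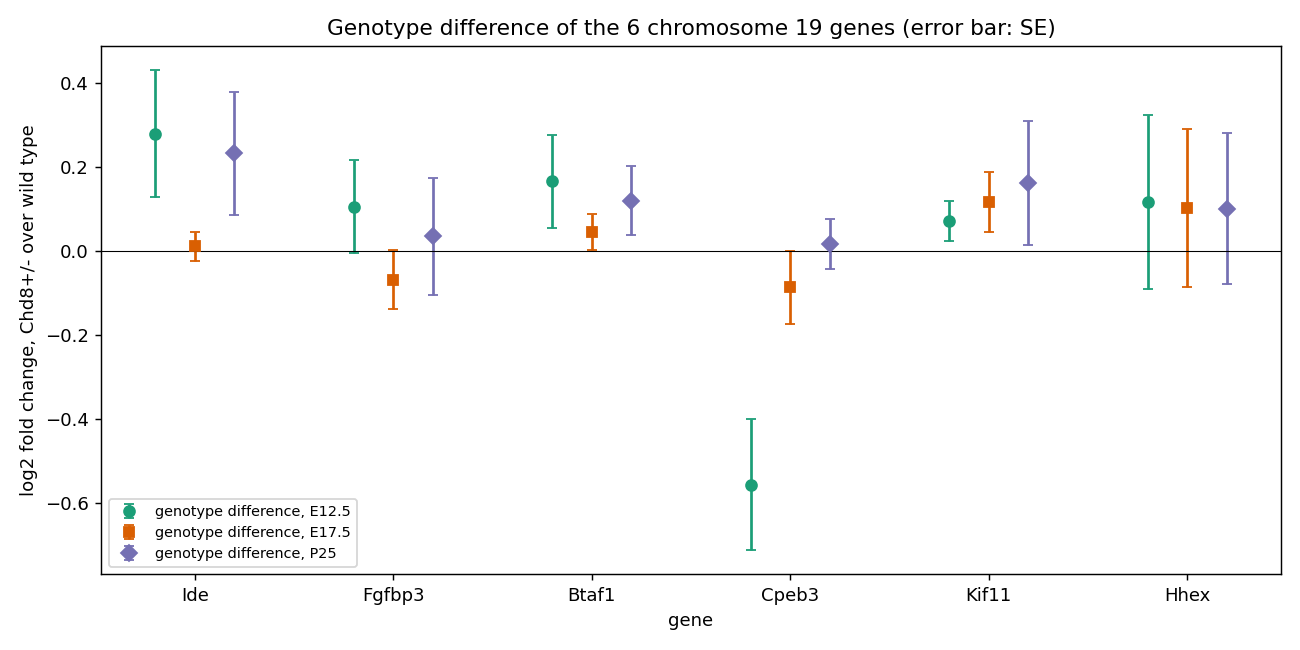
Log2 fold change of Chd8+/- over wild type for the 6 genes at 3 ages, with SE as error bars (edgeR). Cpeb3 at E12.5 lies lowest, at -0.56, and Ide is at 0.28, 0.01 and 0.23.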

How the data were processed

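PolyA RNA of 36 libraries was sequenced, and the authors deposited 1 table per age of raw whole-number counts per gene, not normalized. Per the submitters' processing notes, the tools were STAR 2.7.9a, featureCounts and Subread, and the build was mm39. The sources used here give neither the strand setting nor the annotation release, so overlapping or antisense genes and near-identical copies may have exchanged reads. All 36 columns were matched to samples, 1 of them (an E17.5 heterozygous female) by library number, sex and genotype. RefSeq and GENCODE M21, both on GRCm38, served only for names, gene order, merged exon length and promoter sequences, whose motifs were chosen after the sequences had been seen.

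Library sizes were scaled with the TMM factors of edgeR, and log2 CPM used a prior count of 2. Genotype was tested at each age with edgeR 4.0.16 in R 4.3.3 (quasi-likelihood, filterByExpr, sex as covariate), and age and genotype by age in 1 fit of all libraries with sex within age. Sex was centred, so that age changes are means over both sexes. This coding was chosen after the changes at the level of the females had been seen, and those were kept as an alternative. Adjustment was by Benjamini-Hochberg over all genes tested, at a threshold of 0.05. Alternatives were DESeq2 1.42.0, other scalings and filters, replicate numbers as a block and each library left out. Scripts were tested on simulated data. The members, lists and naming rule (the 6 genes, Chd8, genes around them, the 5 nearest profiles, up to 5 genes per age with the division of Ide, and list members past the threshold) were chosen with earlier results of these data known. P-values measure the spread between individual mice. The main fits hold no term for litter, since the labels do not say which libraries pair, so any littermates were treated as independent. Depth of 23774502 counts or more per library left Hhex at 19 to 145 reads, the least precise of the 6 genes.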

Additional observations from a re-analysis of the deposited data

Results flagged for a closer look

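Within groups of 6 libraries of 1 age and genotype, 4 values in 3 libraries stood far from the rest of their group, by the gap to the nearest library as a share of the range (Dixon's criterion). Chance alone marks about 1 in 20 groups, but 3 of the 4 values are the Ide and Btaf1 levels already known when the genes were chosen. That rate does not apply to them, and they are a description. Wild type female 1 at E12.5 was at 192 CPM of Ide, with the next wild type library at 148, and at 189 CPM of Btaf1, with the next at 157. Wild type male 2 at P25 was at 98.8 CPM of Ide, with the next at 71.1. Heterozygous male 2 at E12.5 was low in Hhex, at 1.39 CPM, with the next at 2.24, on 53 reads. The heterozygous groups held 2 or 3 high libraries each at E12.5 and P25, which this criterion does not mark.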

How the results depend on the processing

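At P25 the 4 libraries above the largest gap were the same in all 5 scalings and prior counts tried, for Ide (gap 0.28 to 0.48) and for Btaf1 (0.12 to 0.23). At E12.5 they were the same 3 in 3 of 5. Relative to Tnks2 and Marchf5, or to Cpeb3, Btaf1 and Tnks2 (which holds Btaf1), the gap lay below heterozygous male 1 and heterozygous female 1 alone, at 0.38 and 0.34 for Ide and 0.26 and 0.21 for Btaf1. Each library left out gave gaps of 0.32 to 0.59 for Ide and 0.24 to 0.40 for Btaf1 at E12.5 (the widest without wild type female 1), and of 0.47 to 0.52 and 0.12 to 0.16 at P25. Without heterozygous female 1 at E12.5 only heterozygous male 1 lay above the Ide gap, and without heterozygous female 2 at P25 only heterozygous male 2 above that of Btaf1. Btaf1 was nearest to Ide except without E12.5 (rank 4), and its difference was 0.08 without P25. Leaving out the libraries above the gaps, and scaling to Tnks2 and Marchf5, were chosen after seeing the data.

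Of the 6 genes, 0 passed for genotype at E12.5, and 1 (Cpeb3) with DESeq2 or all libraries in 1 fit. At P25 1 (Ide, 0.23, adjusted p = 0.0401, edgeR) passed with no low-count filter. For genotype by age, P25 against E12.5, 1 (Cpeb3) passed with DESeq2 or no filter, and 0 to 1 with each library left out, 1 without wild type female 2, heterozygous male 2 or heterozygous female 3 of E12.5. The cause was not tested. Over all genes the E12.5 genotype calls went from 44 to 1146 with DESeq2, 1233 in 1 fit, 232 with no filter, 176 with a stricter filter, 299 without sex, and 1 to 670 with each library left out (highest when heterozygous male 2 was dropped, and 1 for wild type males 2 and 3, heterozygous male 1 and each heterozygous female). At E17.5 they went from 21 to 106 with DESeq2, 216 with no filter and 12 to 53 with each library left out (53 without heterozygous male 3), and at P25 from 1 to 17 with DESeq2, 76 with no filter and 5 in 1 fit. For genotype by age they went from 77 to 276 with DESeq2, 264 with no filter and 26 to 515 with each library left out (E17.5 against E12.5; lowest and highest for heterozygous males 1 and 2 of E12.5), and from 166 to 534, 373 and 64 to 675 (P25 against E12.5; the same males). Without the libraries above the Ide gaps, 44 became 1, 77 became 3 and 166 became 7. Those fits also hold fewer libraries, and the part of that in the drop was not tested.

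Age contrasts at the level of the females, seen before those over both sexes were chosen, called the same 6 genes.

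The reversed values had not passed. Without the 4 libraries above the Ide gap, P25 genotype differences were -0.0406 for Ide, -0.119 for Fgfbp3, -0.0319 for Btaf1 and -0.0746 for Kif11, and without all 7 the Ide term for P25 against E17.5 was -0.0624. With each library left out, P25 differences ran from -0.0483 to 0.103 for Fgfbp3 and -0.0272 to 0.0525 for Cpeb3, E12.5 differences from -0.0317 to 0.247 for Hhex, and the Ide term for P25 against E12.5 from -0.149 to 0.0898.

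Same-numbered samples did not all deviate together (correlations of -0.26 to 0.10 at E12.5, -0.03 to 0.31 at E17.5 and 0.02 to 0.33 at P25, with 5 of 6 over 0.1) and were not taken as pairs. With the replicate block 0 of 6 passed at each age, and all calls went to 1, 52 and 6, or to 1, 116 and 6 by column number.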
